A study of Homo sapiens with 3 samples.

Results

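The array from cells infected with a virus carrying full-length LATS2 was compared, gene by gene, with the array from cells infected with an empty-vector virus. These are 2 of the 3 arrays of the study, and they were chosen by their labels and not by a measured value. The third array, LATS2N, came from cells infected with a virus for residues 1 to 625 of LATS2 and is given beside them. Each group has 1 array, so there is no spread between replicates, and no difference below has a test, a p-value or a replicate check. The differences are between these arrays and may include differences between cultures.

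All 3 samples were labelled as SW620, an established colorectal cancer line from a lymph node metastasis, while the design text names SW480, a line from the primary tumour of the same patient. Which of the lines was used cannot be told from the labels. Every sample was grown in DMEM with 10% FBS at 5% CO2, and the design text describes stable expression of both constructs. The promoter of the virus, and whether a line was a clone or a pool, are not given in the sources used here. Biotin-labelled cRNA was made from 6 ug of total RNA and read on Affymetrix arrays. By its title, the study looked for genes under the control of LATS2 in colon cancer cells.

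LATS2 is a kinase that acts in the Hippo pathway. There the kinases STK3 and STK4, with the scaffold SAV1, activate LATS1 and LATS2, which work with the MOB1 cofactors. The LATS kinases phosphorylate the coactivators YAP1 and WWTR1 (TAZ), which are then held outside the nucleus and no longer activate TEAD transcription factors. The kinase domain lies in the C-terminal part of LATS2, after the residues that LATS2N carries. Colorectal cancer cells commonly have active Wnt and beta-catenin signalling, which drives genes of the intestinal stem cell state.

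A probe set is a group of array features designed for 1 transcript, and its signal is a brightness in arbitrary linear units that can be compared between arrays but not between genes. Signals under 50.5, the median of all probe sets on the 3 arrays, were raised to that floor before ratios were taken. Each gene was represented by 1 probe set. The call used size only: floored signals on the LATS2 and control arrays at least 2-fold apart count as a gene called higher or lower. Genes with a signal of 500 or more on the brighter of these arrays are named bright below, and a probe set was usable where the brighter array read 100 or more. Where a signal lay under the floor, "at least" before a fold marks it as a bound.

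The epithelial markers EPCAM, KRT8 and KRT18 were bright on every array, and 10 of 12 epithelial markers reached the floor, with a summed signal between 125356 and 133153. CDX1 and CEACAM5, markers of differentiated colon epithelium, were below it. Of the markers of other cell types, 3 of 8 fibroblast, 2 of 6 measured blood immune and 1 of 6 endothelial genes reached the floor, and PTPRC, CD3E and VWF were below it. The summed fibroblast signal was 1992 with empty vector, 2560.2 with LATS2 and 2426 with LATS2N, led by LUM, which read 1519 with empty vector, 1884 with LATS2 and 1635 with LATS2N. The 3-prime to 5-prime signal ratio of GAPDH lay between 0.939 and 1.02 and that of ACTB between 1.68 and 1.85, over the 3 arrays. The 18S ribosomal RNA control probe sets had a median log2 ratio against control of -1.31 with LATS2 and -0.70 with LATS2N, so both construct arrays were below control there. The part of this difference in the results below was not tested. In bulk RNA, fewer cells that express a gene and less of its RNA per cell cannot be told apart.

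LATS2 itself had 4 probe sets. The highest read 385 with empty vector, 377 with LATS2 and 409 with LATS2N, and the next read 206, 219 and 219. The other pair lay below the floor on all arrays. No probe set showed a raised LATS2 transcript on the array labelled LATS2. Their positions along the transcript are not known here, so they do not check the labels. The names of the arrays below are those of their labels.

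Most genes differed little between the LATS2 and control arrays. Of 13187 genes that reached the floor, 89.7% lay within 1.5-fold, and among 7402 bright genes 96.4% did. The median log2 ratio of LATS2 over control was 0.03 over both sets, and 45.2% of the genes that reached the floor had a ratio below 0. Of the genes that reached the floor, 127 (0.963%) were called higher and 111 (0.842%) lower. These shares, and the share below 0, are the background for every count of list members below. Among bright genes, 17 (0.23%) were called higher and 27 (0.365%) lower. The share past 2-fold depended on brightness. It was 9.68% for genes whose brighter signal was 100 to 200 and 2.52% for 200 to 500. It was 0.804% for 500 to 2000 and 0.367% from 2000 upwards. Pairs of probe sets for 1 gene spread in the same way, with a robust SD of the log2 ratio of 0.44 where the dimmer signal lay between 50 and 100 and 0.12 above 2000. That spread covers probe sets on the same arrays and not cultures.

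**Figure D1:**
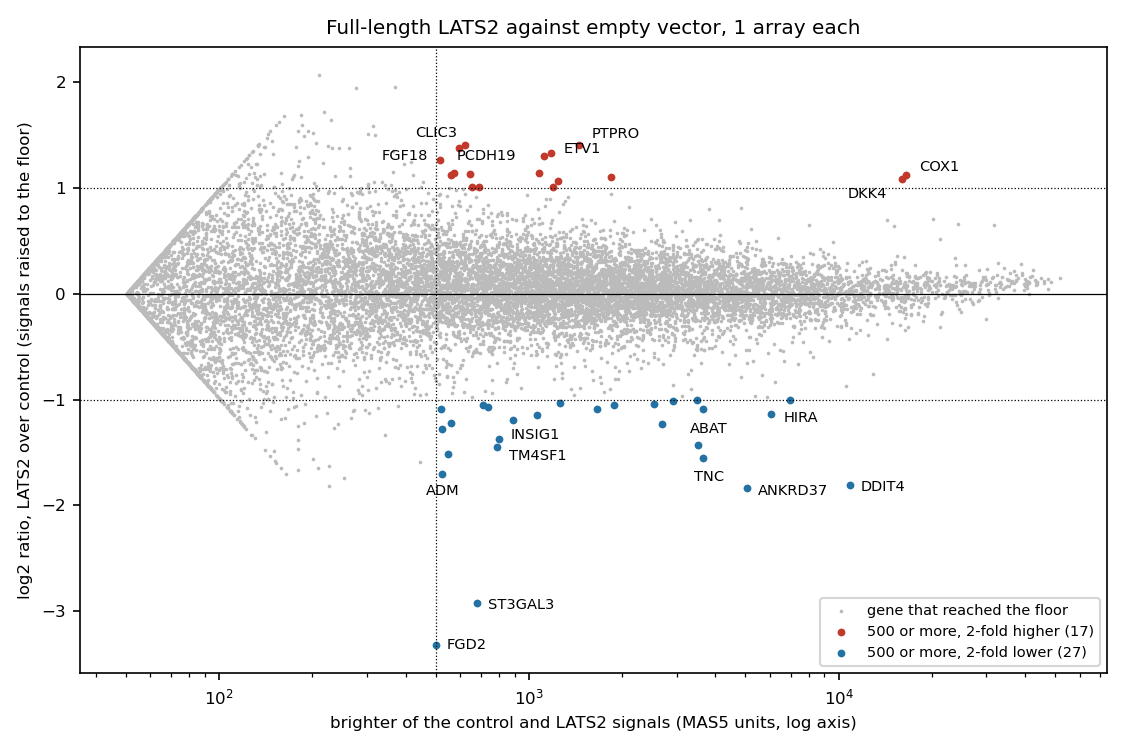
Log2 ratio of the LATS2 array over the control array against the brighter of the signals (log axis), 1 point per gene that reached the floor. Horizontal dotted lines mark 2-fold and the vertical one a signal of 500. The 17 bright higher genes (red) stay below a log2 ratio of 1.5, and the 27 bright lower genes (blue) reach -3.32.

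The bright lower genes spanned a wider range than the bright higher genes. Their folds ran from 2.01 to at least 9.97, with a median of 2.29, and 11 of the 27 had a signal of 2000 or more. The folds of the 17 higher genes ran from 2.01 to 2.65, with a median of 2.19, and 2 of them, COX1 and DKK4, had a signal of 2000 or more. Agreement between probe sets could be read for 12 lower genes with at least 2 usable probe sets, of which 10 had them all in the same direction, and for 5 higher genes, of which 4 did.

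**Figure D2:**
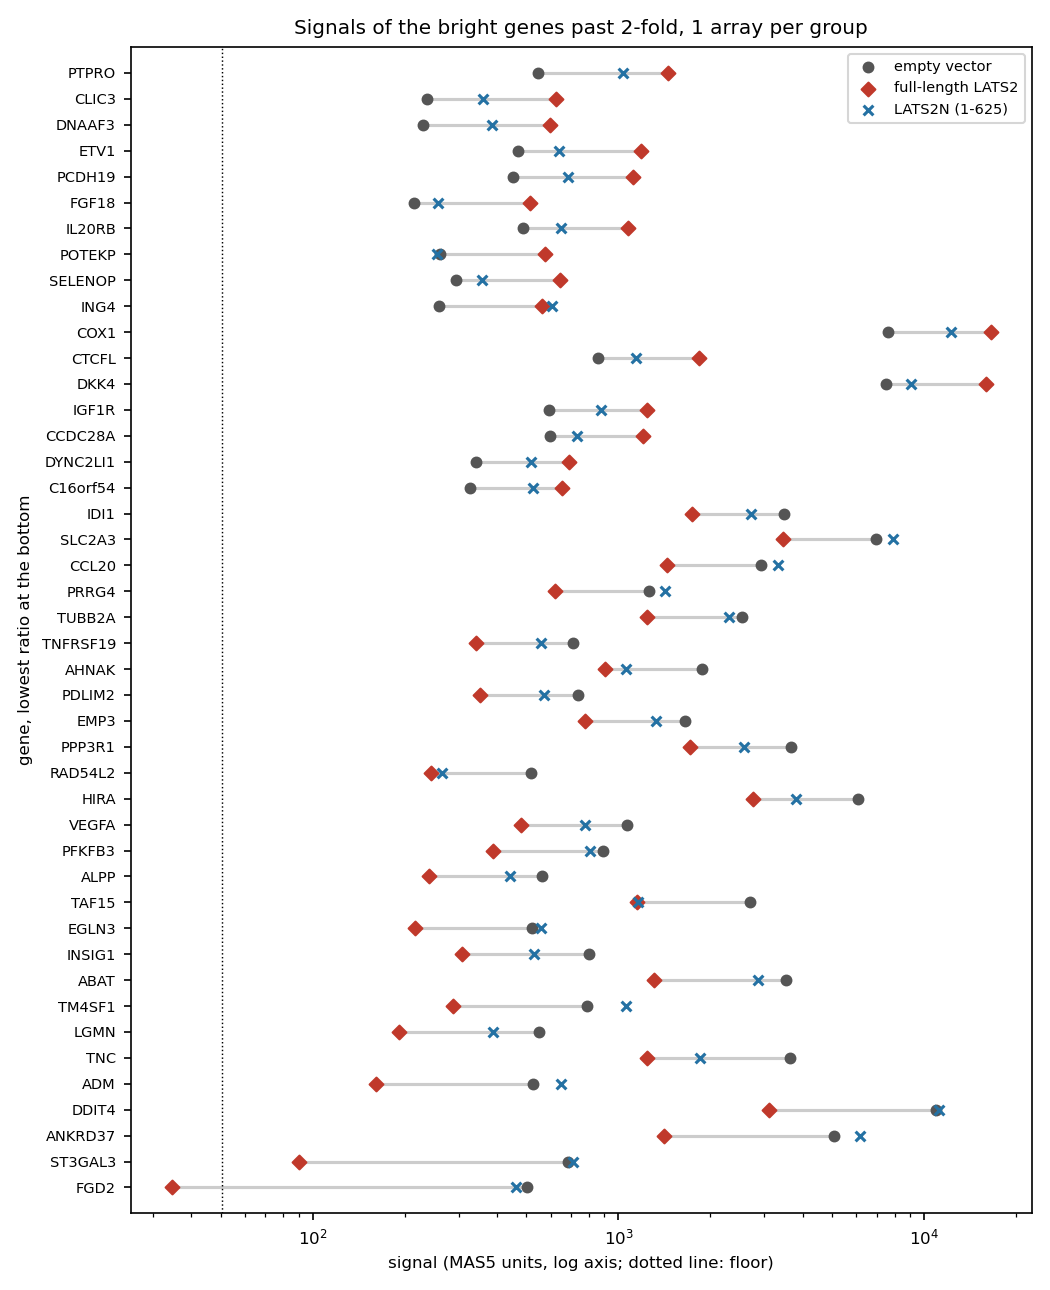
Signals on a log axis of the 44 bright genes past 2-fold on the control (grey circles), LATS2 (red diamonds) and LATS2N (blue crosses) arrays, with 1 array per group and no error bars. FGD2 and ST3GAL3 stand lowest, and the LATS2N cross lies near the control circle for ANKRD37, DDIT4 and ADM but near the LATS2 diamond for TAF15 and RAD54L2.

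The genes lowest on the LATS2 array included targets of the hypoxia-inducible factor (HIF), whose alpha subunits are degraded in oxygen after hydroxylation by the EGLN enzymes and accumulate when oxygen is scarce. ANKRD37, an ankyrin repeat protein gene that HIF induces, read 5059.8 with empty vector, 1414 with LATS2 and 6147 with LATS2N. The LATS2 array alone was low, 3.58-fold under control. DDIT4 (REDD1), a stress-induced protein that restrains mTORC1, read 10901 with empty vector, 3117 with LATS2 and 11212 with LATS2N. The control and LATS2N arrays stood close together, and LATS2 was 3.50-fold lower than control. ADM, which encodes the vasodilator peptide adrenomedullin, read 525 with empty vector, 161 with LATS2 and 647 with LATS2N. Its ratio was 3.26-fold lower on the LATS2 array.

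Further HIF targets were low on the same array. EGLN3, one of the oxygen-sensing hydroxylases and itself induced by HIF, read 523 with empty vector, 216 with LATS2 and 560.0 with LATS2N. It was 2.42-fold lower on LATS2, and its 2 usable probe sets had log2 ratios of -1.27 and -1.01. PFKFB3 makes fructose 2,6-bisphosphate, an activator of glycolysis, and read 889 with empty vector, 388 with LATS2 and 809 with LATS2N. The LATS2 signal was 2.29-fold lower. VEGFA, the angiogenic growth factor, read 1063 with empty vector, 481 with LATS2 and 779 with LATS2N. It was 2.21-fold lower on LATS2, its 3 usable probe sets ran from -1.14 to -0.70 in log2, and LATS2N lay between the other arrays.

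Of 32 HIF targets listed, 29 reached the floor. On the LATS2 array 26 had a ratio below 0 and 3 above, 6 were called lower and none higher. Over all genes that reached the floor, 45.2% were below 0 and 0.842% were called lower. The median log2 ratio of the list was -0.47, against 0.03 over all of them. The list's median on the LATS2N array, set against the same control array, was 0.09. DDIT4, given above, is counted in the mTORC1 list and not in this one. The sixth called gene of the HIF list was MIR210HG, the host transcript of a hypoxia-linked miRNA. It read 110.4, 17.3 and 128 on the control, LATS2 and LATS2N arrays, which is at least 2.19-fold lower on LATS2. Just short of the call lay HILPDA, a lipid droplet protein, at 3116 with empty vector, 1593 with LATS2 and 3421 with LATS2N. Both of its usable probe sets were lower on LATS2, at -0.97 and -0.93 in log2. NDRG1, a stress-responsive gene, read 759.7 with empty vector, 398 with LATS2 and 999 with LATS2N. Its log2 ratio was -0.93 with LATS2 and 0.40 with LATS2N.

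Other members moved less. BHLHE40, a transcriptional repressor, read 3418 with empty vector, 2295 with LATS2 and 3841 with LATS2N, and its 2 usable probe sets gave -0.58 and -0.57 in log2 for LATS2 over control. PDK1, which restrains the oxidation of pyruvate in the mitochondria, read 1315 with empty vector, 886 with LATS2 and 1649 with LATS2N. The LATS2 array was the lowest for both genes. P4HA1, a collagen prolyl hydroxylase, read 3676 with empty vector, 2537 with LATS2 and 3729.6 with LATS2N, a log2 ratio of -0.54 for LATS2. At the other end of the list, the 3 members above 0 were PLOD1, ZNF395 and MXI1, at 0.07, 0.18 and 0.23.

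HIF binds short DNA elements built on the letters ACGTG or GCGTG. The RefSeq promoter windows, from 250 bases before to 50 bases after each gene's start in GRCh38.p14, were searched on both strands for these letters. The windows of the 4 bright HIF targets with the lowest ratios are shown because they show how the elements are placed at the genes that stood lowest. Capitals mark a match to either motif, which on the opposite strand reads CACGT or CACGC. They are ANKRD37 at chr4:185396591-185396890 on the plus strand, ADM at chr11:10304823-10305122 on the plus strand, EGLN3 at chr14:33951025-33951324 on the minus strand and PFKFB3 at chr10:6144671-6144970 on the plus strand, each written 5′ to 3′ along its gene.
ANKRD37: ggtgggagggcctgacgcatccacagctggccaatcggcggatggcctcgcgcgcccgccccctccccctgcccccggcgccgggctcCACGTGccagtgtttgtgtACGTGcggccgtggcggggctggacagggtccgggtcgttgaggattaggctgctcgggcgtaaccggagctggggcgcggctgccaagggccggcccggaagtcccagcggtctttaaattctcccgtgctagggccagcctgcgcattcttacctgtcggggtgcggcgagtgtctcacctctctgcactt
ADM: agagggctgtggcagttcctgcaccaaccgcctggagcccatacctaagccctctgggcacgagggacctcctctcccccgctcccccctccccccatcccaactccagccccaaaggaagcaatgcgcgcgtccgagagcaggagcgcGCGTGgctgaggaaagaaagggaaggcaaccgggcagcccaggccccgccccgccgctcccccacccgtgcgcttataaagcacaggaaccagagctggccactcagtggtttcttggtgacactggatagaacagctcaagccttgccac
EGLN3: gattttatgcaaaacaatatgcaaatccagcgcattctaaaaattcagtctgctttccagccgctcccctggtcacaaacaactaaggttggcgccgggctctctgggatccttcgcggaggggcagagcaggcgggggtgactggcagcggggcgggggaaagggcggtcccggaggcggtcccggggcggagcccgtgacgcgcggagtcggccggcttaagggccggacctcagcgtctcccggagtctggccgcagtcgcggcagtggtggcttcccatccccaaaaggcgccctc
PFKFB3: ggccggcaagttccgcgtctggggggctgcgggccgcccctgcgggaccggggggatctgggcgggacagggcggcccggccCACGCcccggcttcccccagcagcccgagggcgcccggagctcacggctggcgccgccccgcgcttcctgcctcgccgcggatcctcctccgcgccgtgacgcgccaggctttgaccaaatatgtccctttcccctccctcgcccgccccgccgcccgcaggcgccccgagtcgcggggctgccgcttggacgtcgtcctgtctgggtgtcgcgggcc

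The ANKRD37 window held ACGTG 3 times, of which a pair are the 2 strands of 1 palindrome. ADM and PFKFB3 each held 1 match to GCGTG, and EGLN3 held none in this window, which says nothing of elements elsewhere. Over the list, ACGTG was present in 12 of the 23 HIF target promoters that the table holds (52.2%), in 21.6% of all 27305 promoters and in 26.4% of the 10699 promoters of measured genes. GCGTG was present in 14 of 23 (60.9%), against 36.3% and 49.4%. All 12 targets with ACGTG had ratios below 0, with a median log2 ratio of -0.48, and the 11 without it had a median of -0.44. For GCGTG the order was the other way, with 13 of 14 below 0 and a median of -0.23 with it, and a median of -0.54 in the 9 targets without it. These matches are a description of letters and not of binding.

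The HIF list, chosen with earlier results known, holds none of the 19 genes listed under glucose uptake and glycolysis. Any HIF target among them is therefore not in the counts and median of the HIF list. As a list, the glycolysis genes did not follow the members of the HIF list, so the low HIF median does not hold for HIF targets in general. Of 18 members that reached the floor, 11 were below 0 and 7 above, with a median log2 ratio of -0.06, and 2 were called lower. The shares over all genes were 45.2% below 0 and 0.842% called lower. SLC2A3, a glucose transporter (GLUT3), read 6955 with empty vector, 3460.3 with LATS2 and 7935 with LATS2N. The LATS2 array was 2.01-fold lower, and the 3 usable probe sets ran from -1.01 to -0.56 in log2. ALDOC, an aldolase isoform, read 344 with empty vector, 137 with LATS2 and 488 with LATS2N. It was 2.52-fold lower on LATS2 and highest on LATS2N. HK2, the hexokinase that starts glycolysis in many tumours, read 5853 with empty vector, 2970.3 with LATS2 and 4641 with LATS2N. That is 1.97-fold, just under the call, but its other usable probe sets were dim and gave -0.06 and -0.36 in log2. HK1, another hexokinase, had a log2 ratio of -0.66. In contrast, the transporter SLC2A1 (GLUT1) read 11275 with empty vector, 10688 with LATS2 and 12679 with LATS2N. The log2 ratios of GPI, TPI1, PFKL and PFKP lay between -0.09 and 0.07.

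DDIT4 was listed with other inhibitors of mTORC1 and with genes of the amino acid stress response, which ATF4 drives. Of 26 members, 16 were below 0 and 2 were called lower, with a median of -0.15. The called genes were DDIT4 and VEGFA, of which VEGFA is also counted in the HIF list. The shares over all genes were 45.2% below 0 and 0.842% called lower. SESN2, a sestrin that relays amino acid levels to mTORC1, read 369 with empty vector, 229 with LATS2 and 249 with LATS2N, with probe sets at -0.69 and -0.11 in log2. TRIB3, an ATF4 target, had a log2 ratio of -0.39, and ASNS, the asparagine synthetase and another ATF4 target, one of 0.29. Members of this list therefore differed in direction on the LATS2 array. The chaperones of the unfolded protein response had a median of -0.05 over 17 members, with none called in either direction. The lowest was HSP90B1, the chaperone GRP94, at 3996 with empty vector, 2836 with LATS2 and 3364 with LATS2N.

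Genes of sterol synthesis were low on the LATS2 array. When sterols are plentiful, INSIG proteins hold the SREBP transcription factors in the endoplasmic reticulum, and when sterols run low SREBP2 enters the nucleus and activates the genes of the pathway, INSIG1 among them. Of 25 genes listed, 19 had a probe set with 1 gene symbol and reached the floor. On LATS2, 15 were below 0 and 3 were called lower, with a median log2 ratio of -0.53 and a range from -1.38 to 0.66. Over all genes 45.2% were below 0 and 0.842% called lower. On LATS2N against the same control 15 were also below 0, with a median of -0.23.

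INSIG1 read 798 with empty vector, 308 with LATS2 and 529 with LATS2N. The LATS2 array was the lowest and 2.60-fold under control, and the 3 usable probe sets ran from -1.90 to -1.38 in log2. HMGCS1, the synthase that makes HMG-CoA, read 655 with empty vector, 333 with LATS2 and 488 with LATS2N. Its usable probe sets gave -1.42 and -0.98 in log2. IDI1, an isomerase of the mevalonate pathway, read 3491 with empty vector, 1740.0 with LATS2 and 2705 with LATS2N. It was called at 2.01-fold lower, but 1 of its 3 usable probe sets went the other way, at 0.26. MVD, the decarboxylase of the same pathway, was dim at 163 with empty vector, 72.2 with LATS2 and 148 with LATS2N.

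Later steps of the pathway lay in the same direction without reaching 2-fold. DHCR7, which completes cholesterol, read 2921 with empty vector, 1609 with LATS2 and 1900.2 with LATS2N. STARD4, a sterol carrier, read 1462 with empty vector, 786 with LATS2 and 1228 with LATS2N. Both were lowest on LATS2, with log2 ratios of -0.86 and -0.89, and a second probe set of DHCR7 gave -0.22. MSMO1 and LSS, a demethylating oxidase and the cyclase that forms lanosterol, had log2 ratios of -0.65 and -0.64. SREBF2, the gene for SREBP2, read 364 with empty vector, 237 with LATS2 and 310.1 with LATS2N, and its 3 usable probe sets lay between -0.66 and -0.62. The exceptions above 0 were MVK, HSD17B7, PMVK and TM7SF2, of which the sterol reductase TM7SF2 was highest at 317 with empty vector, 501 with LATS2 and 431 with LATS2N. Of 17 sterol promoters in the table, 1 (5.88%) held the sterol regulatory letters TCACNCCAC, against 1.15% of all promoters.

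Fatty acid genes were also mostly below 0 on the LATS2 array, by less. Of 13 members, 10 were below 0, none was called, and the median was -0.19, beside 45.2% below 0 over all genes. On LATS2N, against the same control, 11 were below 0 and the median was -0.14, so both construct arrays were alike for this list. SCD, the desaturase that makes oleate, read 12907 with empty vector, 7616 with LATS2 and 10603 with LATS2N. The LATS2 array was lowest in every probe set, and the 4 usable probe sets ran from -1.27 to -0.76 in log2. FASN, the fatty acid synthase, read 2024 with empty vector, 1696 with LATS2 and 1509 with LATS2N. SREBF1, the gene for the lipogenic SREBP1, had a log2 ratio of 0.04.

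**Figure D3:**
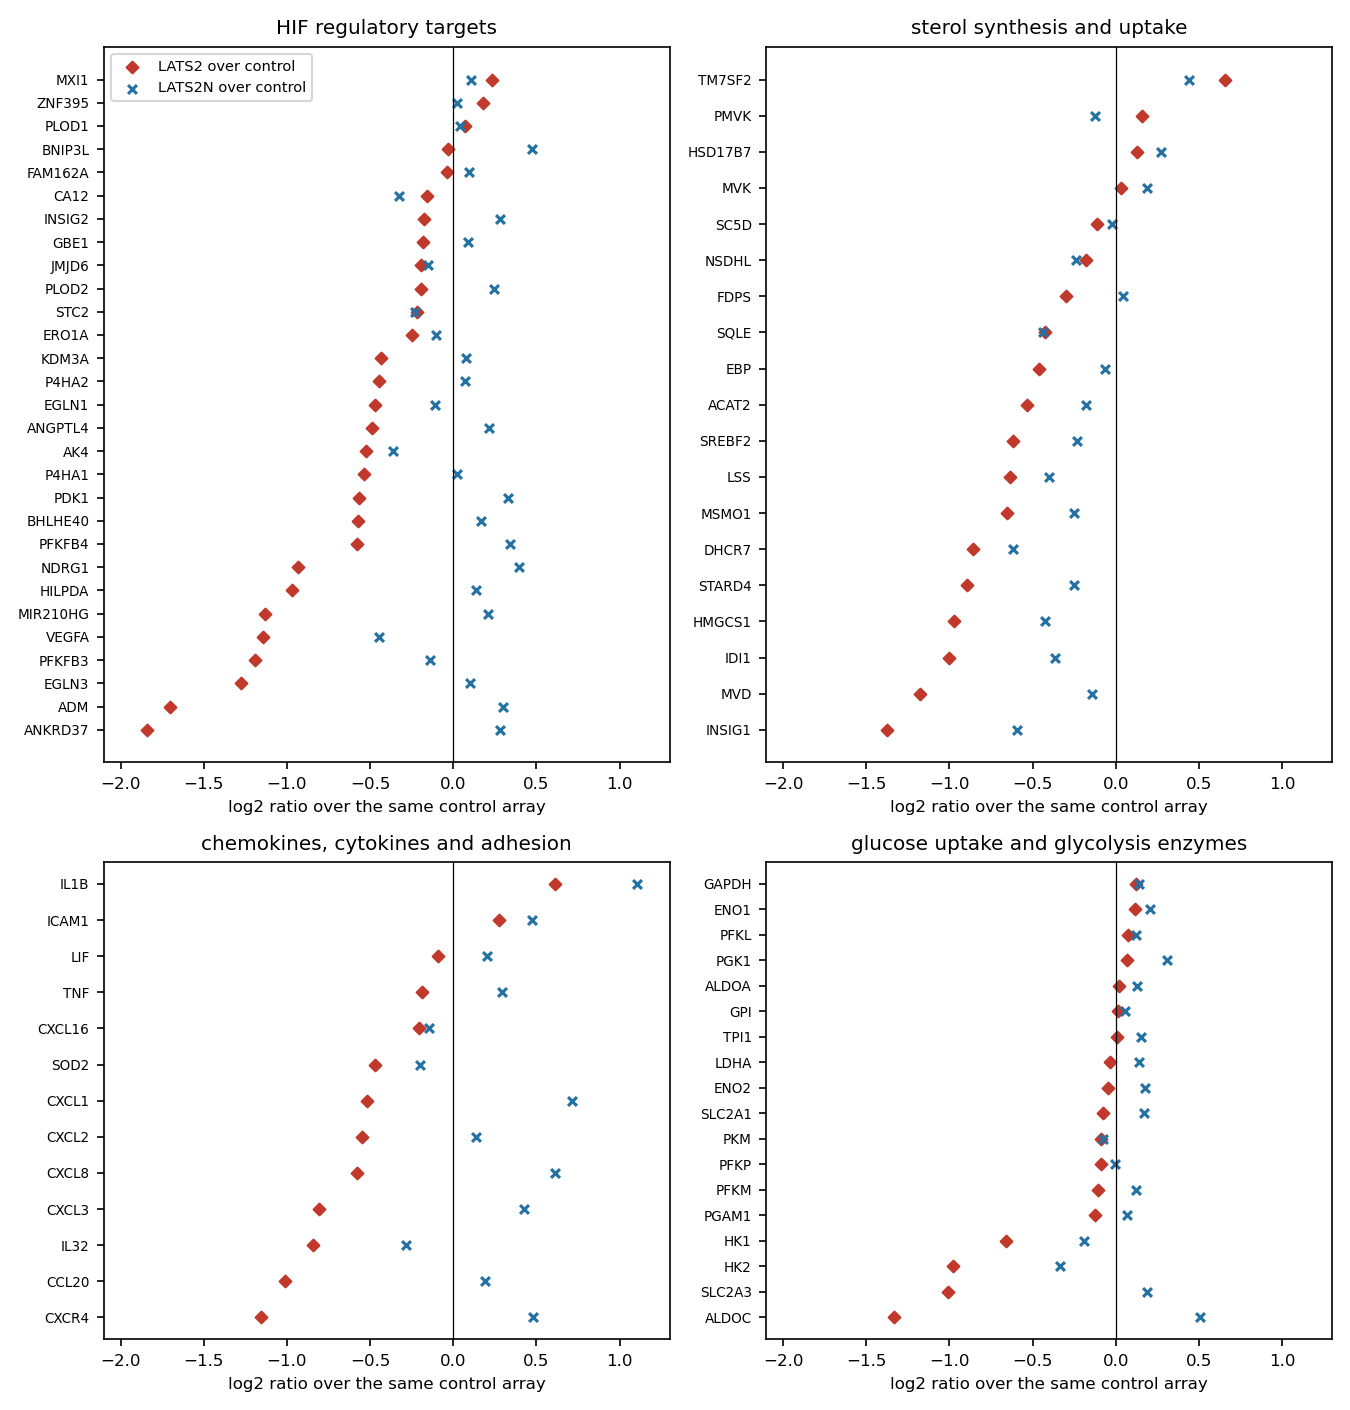
Log2 ratios over the same control array for each member that reached the floor, LATS2 as red diamonds and LATS2N as blue crosses, for 4 lists. Members of the HIF and sterol lists lie mostly left of 0 on LATS2, with medians of -0.47 and -0.53. In the separate glycolysis list, 14 of the 18 genes lie within 0.2 of 0.

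Chemokine and NF-kB genes formed another group below control on the LATS2 array. NF-kB is a family of transcription factors that induce inflammatory cytokines and their own inhibitors. Of 13 chemokine, cytokine and adhesion genes that reached the floor, 11 were below 0, 2 were called lower, and the median log2 ratio was -0.52, beside 45.2% below 0 and 0.842% called lower over all genes. On LATS2N the median of this list was 0.29. CCL20, the chemokine that attracts CCR6-bearing lymphocytes, read 2915 with empty vector, 1446 with LATS2 and 3328 with LATS2N. The LATS2 array was 2.02-fold under control. CXCR4, a chemokine receptor, was dim at 205 with empty vector, 92.3 with LATS2 and 287 with LATS2N. It was 2.23-fold lower on LATS2, and its 3 usable probe sets ran from -1.41 to -0.58 in log2.

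Neutrophil-attracting chemokines lay in the same order over the arrays. CXCL3 read 847 with empty vector, 484 with LATS2 and 1139 with LATS2N, with a log2 ratio of -0.81 for LATS2. CXCL1 read 3458 with empty vector, 2411 with LATS2 and 5658 with LATS2N. Both were lowest on LATS2 and highest on LATS2N. IL32, a cytokine, read 1711 with empty vector, 953 with LATS2 and 1406 with LATS2N, with LATS2N between the other arrays. Against this direction, IL1B, a pro-inflammatory cytokine, was above control on both construct arrays at 149.7 with empty vector, 228 with LATS2 and 322 with LATS2N. The NF-kB binding letters known as the kappaB site were present in 5 of 11 promoters of the list (45.5%) and in 10.8% of all promoters. The median log2 ratio was -0.81 with the site and -0.33 without it.

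Among 15 NF-kB subunits and feedback inhibitors, 13 were below 0 on LATS2, 1 was called lower, and the median was -0.36. The shares over all genes were 45.2% and 0.842%. The called gene was TNFAIP2, a TNF-induced gene, at 379 with empty vector, 182 with LATS2 and 540.0 with LATS2N. RELB, a subunit of the noncanonical pathway, read 514 with empty vector, 304 with LATS2 and 449.6 with LATS2N. TNFAIP3, which encodes the feedback inhibitor A20, read 561 with empty vector, 353 with LATS2 and 756 with LATS2N, and both usable probe sets were lower on LATS2. RELA, the main activating subunit, stood near control with a log2 ratio of 0.03. Interferon-stimulated genes, which can respond to a virus, had a median of -0.02 over 18 members, with no call. That median kept its sign in 6 of 9 alternative settings.

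Matrix and invasion-linked genes were mixed. Of 26 that reached the floor, 16 were below 0 and 2 were called lower, with a median of -0.19. Over all genes that reached the floor, 45.2% were below 0 and 0.842% were called lower. TNC encodes tenascin C, a matrix glycoprotein of remodelling tissue and tumour stroma, and read 3636 with empty vector, 1241 with LATS2 and 1846 with LATS2N. Both construct arrays were below control, LATS2 by 2.93-fold. TM4SF1, a tetraspan membrane protein tied to cell movement, read 788 with empty vector, 289 with LATS2 and 1058 with LATS2N. It was 2.73-fold lower on LATS2 with 3 usable probe sets from -1.45 to -1.15, and highest on LATS2N. L1CAM, a neural adhesion molecule found at the invasive front of colon cancers, read 1752 with empty vector, 918 with LATS2 and 1495 with LATS2N. TIMP2, an inhibitor of metalloproteases, lay the other way at 3117 with empty vector, 4156 with LATS2 and 3204 with LATS2N, while the related inhibitor TIMP1 had a log2 ratio of -0.51.

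Junction and cytoskeleton genes showed few large differences. CDH1, the epithelial cadherin, read 4421 with empty vector, 2792 with LATS2 and 3567 with LATS2N, a log2 ratio of -0.66 for LATS2 from 1 usable probe set. VIM, the mesenchymal intermediate filament, had a log2 ratio of 0.03, and ZEB1, a repressor of CDH1, one of 0.29. The junction and EMT list of 18 genes had 9 above and 9 below 0 and a median of 0.01, which kept its sign in 4 of 9 alternative settings. TAGLN, an actin-binding protein and target of the transcription factor SRF, was dim at 254 with empty vector, 75.8 with LATS2 and 217 with LATS2N. It was 3.35-fold lower on LATS2, and its 3 usable probe sets ran from -1.74 to -0.56 in log2. The actin and SRF list of 22 genes had 1 other call, ACTA2, the smooth muscle actin. It was at least 2.04-fold higher with a control signal of 46.7 and a LATS2 signal of 103. Over all genes 45.2% were below 0, 0.963% called higher and 0.842% called lower.

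The largest ratio of all bright genes was that of FGD2, an exchange factor for the small GTPase CDC42, which read 503 with empty vector, 34.5 with LATS2 and 463 with LATS2N. Its LATS2 signal was below the floor, at least 9.97-fold under control. FGD2 has 7 probe sets, of which only 2 were usable, and the second read 101 with empty vector, 11.6 with LATS2 and 25.3 with LATS2N. ST3GAL3, a sialyltransferase, read 682 with empty vector, 90 with LATS2 and 709.5 with LATS2N. That is 7.58-fold lower on LATS2 in the only usable of its 7 probe sets. ABAT, the transaminase that degrades the neurotransmitter GABA, read 3521 with empty vector, 1307 with LATS2 and 2861 with LATS2N. It was 2.69-fold lower on LATS2, and its 3 usable probe sets ran from -1.52 to -0.67 in log2.

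Other bright lower genes belonged to varied functions. HIRA, a chaperone of the histone variant H3.3, read 6056 with empty vector, 2756 with LATS2 and 3817 with LATS2N. It was 2.20-fold lower on LATS2, with LATS2N between. LGMN, the lysosomal protease legumain, read 550.1 with empty vector, 192 with LATS2 and 388 with LATS2N. PPP3R1, the regulatory subunit of the phosphatase calcineurin, read 3656 with empty vector, 1719.6 with LATS2 and 2582 with LATS2N, and both of its probe sets were lower on LATS2, at -1.09 and -0.60 in log2. For these genes the LATS2 array was lowest and LATS2N intermediate. EMP3, a membrane protein of the PMP22 family, read 1655 with empty vector, 779.8 with LATS2 and 1325 with LATS2N. TUBB2A, a beta-tubulin, read 2537 with empty vector, 1235 with LATS2 and 2292 with LATS2N. AHNAK, a very large scaffold protein, read 1879.5 with empty vector, 905 with LATS2 and 1058 with LATS2N. Their folds were between 2.05 and 2.12, each from 1 usable probe set.

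For some genes both construct arrays stood below the control array by a like amount. TAF15, an RNA-binding protein of the FET family, read 2686 with empty vector, 1147 with LATS2 and 1159 with LATS2N. It was 2.34-fold lower on LATS2, but a second usable probe set gave a log2 ratio of 0.22. RAD54L2, a helicase-like protein, read 519 with empty vector, 243 with LATS2 and 266 with LATS2N, and a second probe set gave a log2 ratio of -0.21 for LATS2. CCNF, an F-box protein of the cell cycle, read 1898 with empty vector, 1087 with LATS2 and 1034 with LATS2N, with both usable probe sets lower on LATS2. Such a pattern cannot be told apart from a control array that reads high, since both ratios use it. The remaining bright lower genes were ALPP, PDLIM2 and PRRG4, between 2.04 and 2.33-fold. The other usable probe set of PRRG4 read 231 with empty vector and 230.5 with LATS2. ALPP, placental alkaline phosphatase, has near-identical relatives that its probe set could also read.

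The bright higher genes were led by PTPRO, a receptor-type tyrosine phosphatase, which read 546 with empty vector, 1450.4 with LATS2 and 1035 with LATS2N. It was 2.65-fold higher on LATS2, with LATS2N between. CLIC3, a chloride channel family protein, read 236 with empty vector, 623 with LATS2 and 359.8 with LATS2N. DNAAF3, which helps to assemble the dynein arms of cilia, read 229.9 with empty vector, 596 with LATS2 and 387 with LATS2N. These stood 2.64 and 2.59-fold over control, each in 1 usable probe set. PCDH19, a protocadherin, read 452 with empty vector, 1117 with LATS2 and 683 with LATS2N. IL20RB, a receptor subunit for cytokines of the IL-10 family, read 489 with empty vector, 1077 with LATS2 and 647 with LATS2N. CTCFL, a germline relative of the insulator protein CTCF, read 858 with empty vector, 1837 with LATS2 and 1144 with LATS2N. For all 6 genes LATS2 was highest and the control array lowest.

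ETV1, a PEA3 family transcription factor that acts downstream of ERK signalling, read 471 with empty vector, 1181 with LATS2 and 639.6 with LATS2N. It was 2.51-fold higher on LATS2 in that probe set, and the 4 usable probe sets ran from 0.08 to 1.33 in log2. DUSP6, a phosphatase that ERK induces and that switches ERK off, read 2524 with empty vector, 3609 with LATS2 and 2569.8 with LATS2N. Its 3 usable probe sets lay between 0.52 and 0.70. ETV5, another PEA3 factor, read 1948 with empty vector, 2736 with LATS2 and 2184 with LATS2N, while ETV4, the remaining one, was below control with a log2 ratio of -0.42. Of 20 ERK feedback and PEA3 genes, 13 were above 0 on LATS2, 1 was called higher, and the median was 0.11. The shares over all genes were 45.2% below 0 and 0.963% called higher. The receptors ERBB2 and ERBB3 had log2 ratios of 0.48 and 0.54, and EGFR one of -0.24. The 3 usable probe sets of ERBB3 differed in direction, from -0.28 to 0.54.

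Other bright higher genes had mixed support. IGF1R, the insulin-like growth factor receptor, read 595 with empty vector, 1241 with LATS2 and 876 with LATS2N, but its 3 usable probe sets ran from -0.89 to 1.06 in log2 and disagreed in direction. ING4, a chromatin reader of histone methylation, read 258 with empty vector, 561 with LATS2 and 607 with LATS2N. Both of its probe sets were higher on LATS2, while LATS2N was as high as LATS2 in 1 of them only. SELENOP, the selenium transport protein, read 294 with empty vector, 643 with LATS2 and 357 with LATS2N. POTEKP, an actin-related pseudogene, read 261 with empty vector, 574 with LATS2 and 254 with LATS2N, and relatives of near-identical sequence could add to its signal. The rest were CCDC28A, C16orf54 and DYNC2LI1, an intraflagellar transport protein, between 2.01 and 2.02-fold.

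Transcripts of the mitochondrial genome, which encodes subunits of the respiratory chain, were higher on the LATS2 array in all 7 genes measured. COX1, the catalytic subunit of cytochrome oxidase, read 7623 with empty vector, 16544 with LATS2 and 12230.1 with LATS2N. It was 2.17-fold higher on LATS2. ND4, a subunit of complex I, read 15439.8 with empty vector, 24340.5 with LATS2 and 21516 with LATS2N, and its 2 usable probe sets gave 0.66 and 0.76 in log2. ATP6, ATP synthase subunit 6, had the smallest log2 ratio, 0.51. On LATS2N the ratios over the same control were between 0.40 and 0.68. The nuclear-encoded respiratory chain list differed far less, with 19 of 23 genes above 0 and a median of 0.09 on LATS2. On LATS2N its median was 0.15, with 1 gene below 0. The share below 0 over all genes was 45.2% on LATS2. All 17 measured cytosolic ribosomal protein genes were above 0 on LATS2, with a median of 0.11, none called, and a LATS2N median of 0.12. The shift of the 18S probe sets given above had the opposite sign.

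Agreement of several probe sets gave a further view of moderate differences. Of 4193 genes with at least 2 usable probe sets and 1 of them bright, 19 (0.453%) had every usable probe set at least 1.5-fold higher on LATS2 and 13 (0.31%) at least 1.5-fold lower. ID2, an inhibitor of helix-loop-helix factors and a target of BMP signalling, read 714 with empty vector, 1287 with LATS2 and 726 with LATS2N. Only the LATS2 array was high, and the probe sets gave 0.85 and 1.65 in log2. BABAM2, a subunit of the BRCA1-A complex, read 1197 with empty vector, 2112 with LATS2 and 1453 with LATS2N, and all 3 of its probe sets were higher on LATS2. CHI3L1, a secreted chitinase-like glycoprotein, read 957 with empty vector, 1835 with LATS2 and 1248 with LATS2N. PTPN12, a tyrosine phosphatase acting on focal adhesion proteins, read 5087 with empty vector, 7997 with LATS2 and 5189.5 with LATS2N, with only the LATS2 array high. MARK4, a microtubule affinity regulating kinase, read 607 with empty vector, 1131 with LATS2 and 729 with LATS2N.

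The other higher genes of this rule were AGTRAP, AP3M2, CALCOCO2, ELMO2, FBXO8, GM2A, ING4, MYH7B, ND4, SIN3B, SLC37A4, TMEM139, UBALD2 and YPEL5. Among the lower genes were FGD2, INSIG1, HMGCS1, SCD, EGLN3, VEGFA, HILPDA, TM4SF1, ABAT, PPP3R1 and CCNF, all given above. CKAP4, an endoplasmic reticulum membrane protein, read 1829 with empty vector, 977 with LATS2 and 1569 with LATS2N. WT1, a zinc-finger transcription factor, read 1271 with empty vector, 806 with LATS2 and 1071 with LATS2N. Both were lowest on LATS2, with probe sets from -0.94 to -0.90 and from -1.08 to -0.66 in log2.

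**Figure D4:**
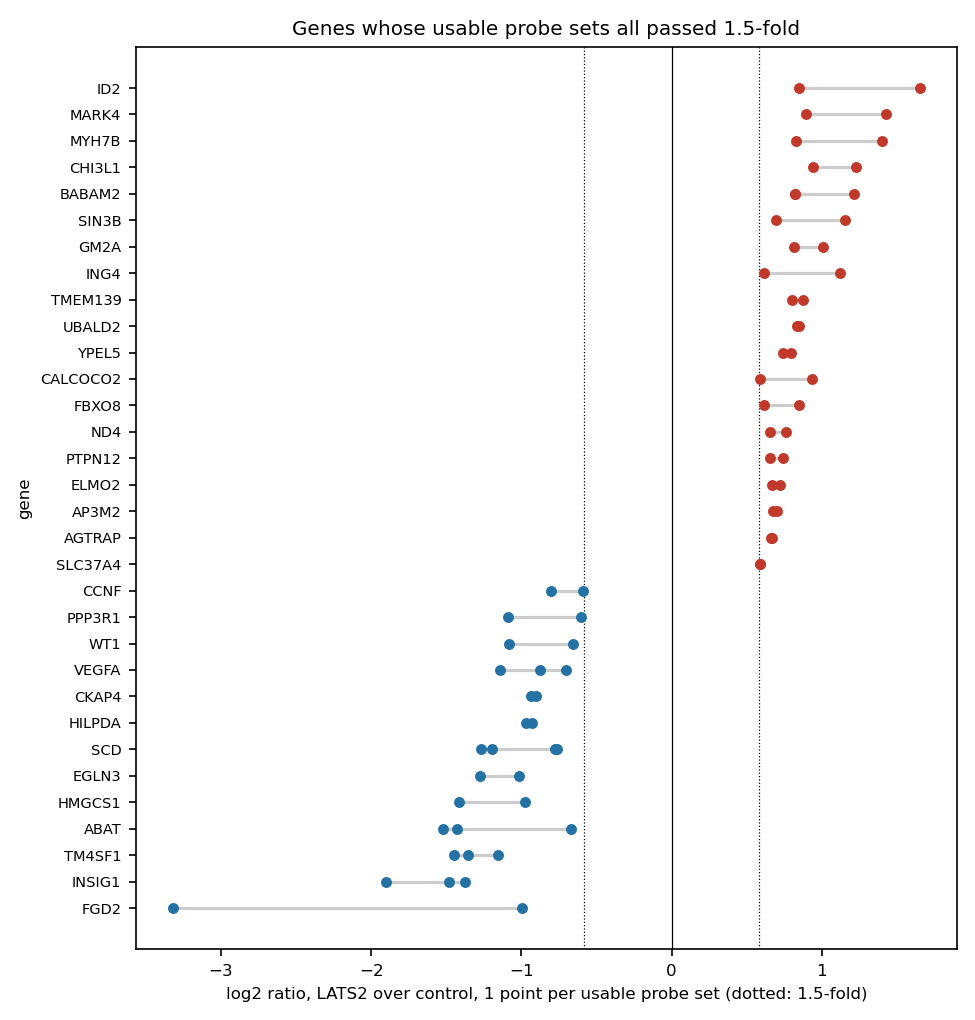
Log2 ratio of LATS2 over control for each usable probe set (points, joined per gene) of the 32 genes whose usable probe sets all passed 1.5-fold. The 19 higher genes (red) reach 1.65 for ID2, and the 13 lower genes (blue) reach -1.90 for INSIG1 and -3.32 for FGD2, whose LATS2 signals are below the floor.

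The pathway LATS2 belongs to showed small differences. Of 20 Hippo kinases and regulators that reached the floor, 13 were above 0 and none was called. The median log2 ratio was 0.07, and 45.2% of all genes were below 0. STK4, which activates the LATS kinases, read 2306 with empty vector, 2855 with LATS2 and 2178 with LATS2N. LATS1, the paralogue of LATS2, had a log2 ratio of 0.05. LIMD1, a scaffold that restrains LATS kinases, was lowest of the list at 494 with empty vector, 290.1 with LATS2 and 429 with LATS2N, with 3 usable probe sets from -0.77 to -0.11 in log2. YAP1 read 6068 with empty vector, 5591 with LATS2 and 5701 with LATS2N, and WWTR1 read 359.8 with empty vector, 304 with LATS2 and 329 with LATS2N. Their log2 ratios for LATS2 were -0.12 and -0.24. TEAD1, a DNA-binding partner of YAP1, had a log2 ratio of 0.02, TEAD2 one of 0.23 and TEAD4 one of -0.04. VGLL3 and VGLL4, cofactors that compete for TEAD proteins, had log2 ratios of -0.35 and -0.31, and VGLL1 was below the floor. TEAD3 was called 2.05-fold higher but was dim, at 77.8 with empty vector, 159.6 with LATS2 and 93.3 with LATS2N.

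Of 18 YAP and TAZ targets that reached the floor, 11 were below and 7 above 0 on LATS2, with a median of -0.03, and 7 were bright. Beside this, 45.2% of all genes were below 0 and 0.963% were called higher. CCN1, a secreted matrix protein and common readout of YAP, was called 2.04-fold higher at 66.8 with empty vector, 136 with LATS2 and 97.6 with LATS2N. CCN2, another common readout, read 28.6 with empty vector, 66.4 with LATS2 and 38.8 with LATS2N, and ANKRD1 was below the floor throughout. F3, the tissue factor gene, lay the other way at 477 with empty vector, 299 with LATS2 and 434 with LATS2N. FJX1, a bright target, had a log2 ratio of -0.50, and AMOTL2, a feedback target that binds YAP1, one of -0.02. The TEAD binding letters GGAATG were present in 5 of 13 target promoters (38.5%) and 14.05% of all promoters. The median log2 ratio was 0.24 in targets with these letters and -0.26 in those without. At these signals a moderate difference in the dim targets was not detectable.

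Wnt feedback genes and targets went both ways. Of 24 that reached the floor, 14 were above 0, 2 were called higher and 1 lower, and the median was 0.04. The shares over all genes were 45.2% below 0, 0.963% called higher and 0.842% called lower. DKK4, a secreted inhibitor of the Wnt coreceptor, read 7523 with empty vector, 15957 with LATS2 and 9087 with LATS2N. The LATS2 array alone stood well above the others, 2.12-fold over control, from 1 probe set. FGF18, a growth factor gene activated by beta-catenin, read 214 with empty vector, 515 with LATS2 and 256 with LATS2N. It was 2.40-fold higher on LATS2, and its 4 usable probe sets ran from 0.35 to 1.26 in log2. TNFRSF19, a receptor of the TNF family and a Wnt target, was 2.07-fold lower at 711 with empty vector, 343 with LATS2 and 557 with LATS2N. LGR5, the stem cell marker of the crypt, read 569 with empty vector, 331 with LATS2 and 402 with LATS2N. FGF20, another growth factor target, had a log2 ratio of -0.59. AXIN2, the standard feedback readout, read 5369 with empty vector, 5577 with LATS2 and 5315 with LATS2N. The log2 ratio was 0.05 in this probe set, and its 4 usable probe sets ran from -1.01 to 0.05.

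In the complex through which beta-catenin acts, 16 genes had a median of 0.05 and no call, and the median kept its sign in 8 of 9 alternative settings. BCL9, which links beta-catenin to the PYGO proteins, was dim at 181 with empty vector, 326 with LATS2 and 186 with LATS2N. CBY1, a beta-catenin antagonist, read 527 with empty vector, 848 with LATS2 and 684 with LATS2N. CTNNB1, beta-catenin itself, had a log2 ratio of 0.08. The BMP and TGF-beta list held 16 genes above and 5 below 0 on LATS2, none called, with a median of 0.14. The share below 0 over all genes was 45.2%. SKIL, a repressor and target of SMAD signalling, read 2074 with empty vector, 3119 with LATS2 and 2308 with LATS2N. TGFBI, a TGF-beta induced matrix protein, read 904 with empty vector, 1381 with LATS2 and 1495 with LATS2N, and TGFBR1, a receptor, was below control on both construct arrays at 4644 with empty vector, 3101 with LATS2 and 3089 with LATS2N.

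Proliferation genes hardly differed. The 25 genes of G1/S and DNA replication had a median of 0.00, and the 26 mitosis genes one of 0.04, with none called in either list. CDC25C, the phosphatase that starts mitosis, was the highest mitosis gene at 560.0 with empty vector, 905 with LATS2 and 603 with LATS2N. MKI67, a proliferation marker, was the lowest at 3300.4 with empty vector, 2439 with LATS2 and 2234 with LATS2N. The p53 targets had 13 of 18 members below 0, no call and a median of -0.19, beside 45.2% below 0 over all genes. ZMAT3, a bright member, read 1599 with empty vector, 964 with LATS2 and 1194 with LATS2N, and CDKN1A, the cyclin-dependent kinase inhibitor p21, read 418 with empty vector, 260.1 with LATS2 and 263 with LATS2N. Both construct arrays were below control there. In the BCL2 family, 10 of 12 were below 0 on LATS2, with a median of -0.18. On LATS2N 8 were below 0, with a median of -0.21, so both construct arrays were alike for this list. BCL2, the inhibitor of apoptosis, was the only called member at 179.6 with empty vector, 65.1 with LATS2 and 63.2 with LATS2N. Over all genes 0.842% were called lower on LATS2.

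Stress lists outside these groups were near control. The heat shock list of 14 genes had a median of -0.03, which kept its sign in 8 of 9 alternative settings. HSPA6, a strictly inducible heat shock protein, was its 1 called gene, beside 0.963% called higher over all genes. It read 104 with empty vector, 314 with LATS2 and 81.4 with LATS2N. Both usable probe sets were higher on LATS2, at 1.59 and 1.85 in log2, while HSPH1 and DNAJB1, other inducible chaperones, had log2 ratios of -0.14 and -0.24. NQO1, a quinone reductase and NRF2 target, read 2912 with empty vector, 4106 with LATS2 and 2911 with LATS2N. Its 3 usable probe sets lay between 0.49 and 0.75, in a list of 18 NRF2 targets with a median of 0.05 and no call. SLC30A1, a zinc exporter, was above control at 1814 with empty vector, 2677 with LATS2 and 1864 with LATS2N, while the list of metallothioneins and zinc transporters had a median of -0.23 on LATS2 and 0.15 on LATS2N.

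**Figure D5:**
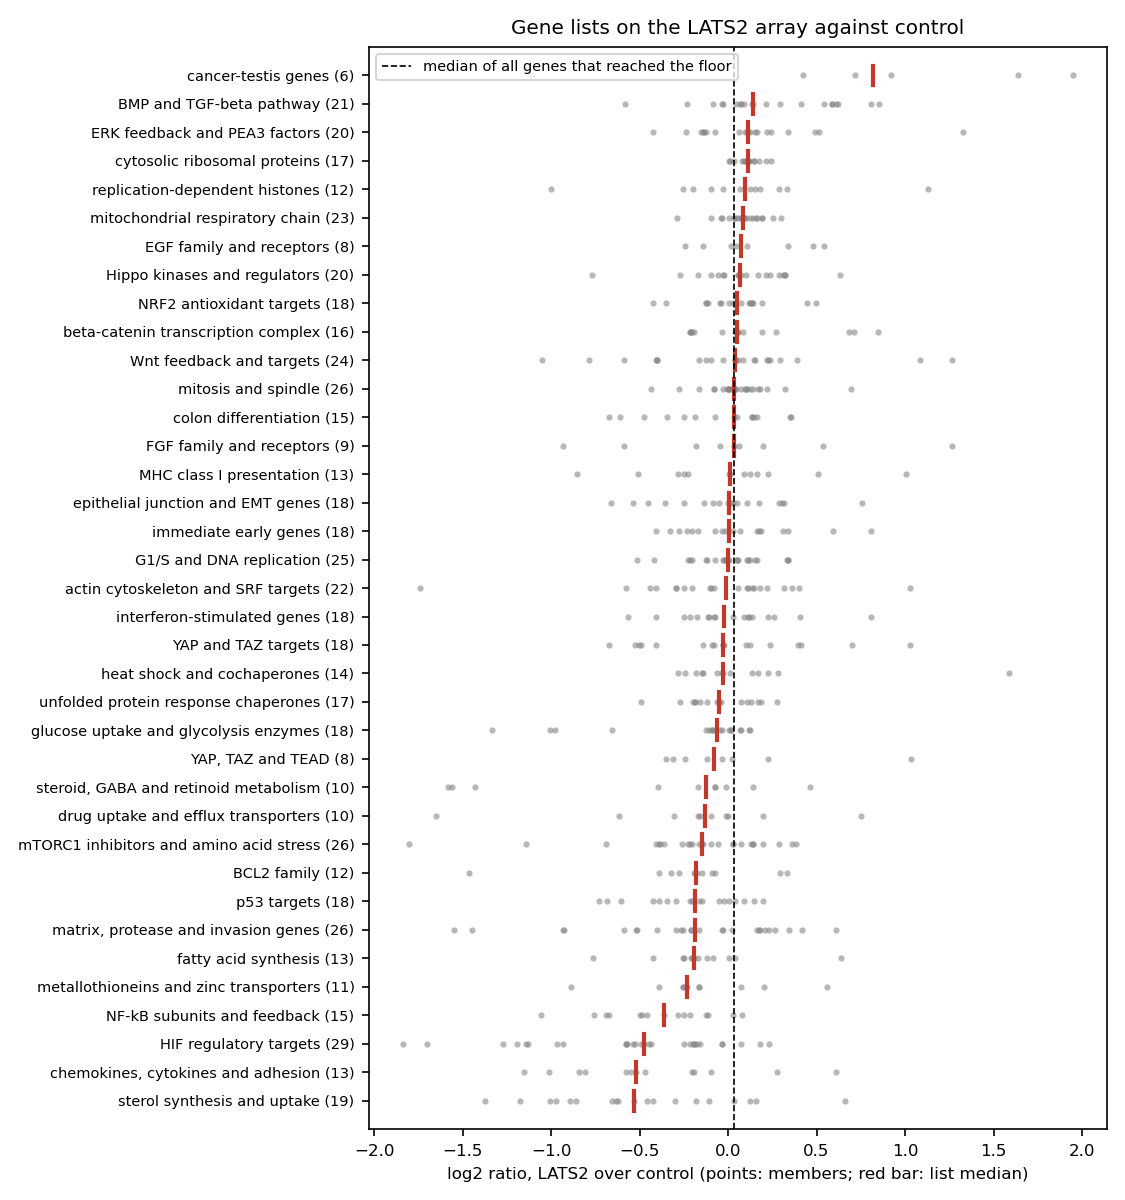
Log2 ratios of LATS2 over control of the members of 37 lists (grey points, number that reached the floor in brackets) with each list's median (red bar) and the median of all genes that reached the floor (dashed line, 0.03). The sterol, chemokine, HIF and NF-kB lists have the lowest medians, from -0.53 to -0.36, and the 6 dim cancer-testis genes the highest, 0.82, which ran from 0.04 to 1.33 under the alternative settings.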

How the data were processed

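RNA of 3 cell line samples was measured on 1 Affymetrix array each. The deposited values are linear probe set intensities, and the submitters' processing notes name MAS5 without a version or settings. From the values, each array had a mean of 500.1 after removal of the lowest and highest 2%, and no normalisation between arrays was added here. The precision is limited by the number of arrays.

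Each array holds 54675 probe sets, including 62 controls. In the platform's probe table, 41091 of the rest had 1 symbol, 1801 had several, and 11721 were absent. Symbols were updated through gene identifiers to RefSeq (GRCh38.p14), matching 41037. Of the probe sets of a gene, the one highest in mean log2 signal stood for it. This left 19775 genes, and 9252 had a single probe set. Floored log2 ratios, the 2-fold size call and counts were computed with pandas 2.3.3 and numpy 2.4.6 in Python 3.11.15, and checked on simulated data. Robust SD means the scaled median absolute deviation of the difference between probe sets of 1 gene, divided by the square root of 2. It therefore stands for the spread of a single probe set. Promoters were matched by symbol.

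The genes named are LATS2, every bright gene past 2-fold, every gene of the several-probe-set rule, all members of the list of 9 on YAP, TAZ and TEAD, and 5 dim genes per direction with at least 2 agreeing probe sets. The rule also takes up to 4 bright members per list by size of ratio, of which only some are named. Other members named were chosen after their values were seen. The comparison, the 37 lists (761 genes) and the rules were chosen with earlier results of these data known. Both constructs are set against the same control array. Alternatives changed the floor, pseudocount, scaling, probe sets and limits.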

Additional observations from a re-analysis of the deposited data

Results flagged for a closer look

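Probe sets without exactly 1 gene symbol enter no result on genes, so a signal in them was looked for separately. Of 1299 such probe sets with a signal of 500 or more on the LATS2 or control array, 6 were at least 2-fold higher on LATS2 and 3 at least 2-fold lower. The brightest of them read 1649 with empty vector, 5539 with LATS2 and 6769.7 with LATS2N, 3.36-fold higher on LATS2. Another read 893, 2531 and 1864 in the same order, and the one with the largest ratio read 137, 507 and 357, which is 3.69-fold higher on LATS2. The lower probe set with the largest ratio read 979.9, 418 and 961, 2.35-fold lower on LATS2 alone. Which transcripts they read was not looked up here.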

How the results depend on the processing

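Each group has 1 array, so no replicate could be left out. For the same reason no paired analysis was possible. Signal over background limits the dim genes. With the floor at the 25th percentile of all signals, 813 genes were higher and 949 lower on LATS2, and with no floor 415 and 457. With the floor at the 75th percentile 9 were higher and 19 lower, of the bright genes 9 were higher, and 9 higher and 3 lower genes met the several-probe-set rule. A pseudocount in place of the floor left 74 higher. At 3-fold 11 were higher and 14 lower, 0 and 5 of them bright, and at 1.5-fold 772 and 582, of which 145 and 118 were bright. With bright set at 1000 the counts were 9 and 15, and at 200 they were 51 and 45. Without probe sets that may read related transcripts, 7 higher and 2 lower genes met the several-probe-set rule. With all probe sets and that rule at 2-fold, 0 higher and 3 lower did. The share of calls that were higher was 53.4%, and 49.8% to 51.7% under other scalings.

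The alternatives on values were run on 71 called genes, those of the naming rule and of the lists, and no call among them turned direction. A changed floor or a pseudocount cannot reverse the direction of a ratio, so those alternatives did not test it. Of the 71 genes, 19 held under each of the 7 to 9 alternatives that gave them a value. All 9 gave a value for ABAT, ANKRD37, CTCFL, DKK4, EMP3, IL20RB, INSIG1, PCDH19, TM4SF1 and TUBB2A. Only 8 did for ALDOC, COX1, DDIT4, HIRA, HSD11B2, HSPA6, PFKFB3 and SLCO1B3, and 7 for MAGEA12. An alternative without a value did not test the gene, so these genes are not shown to be firmer than others. Taking each gene's median probe set value instead, 25 of the 71 no longer passed. That alternative cannot change a gene with 1 probe set. The HIF median stayed between -0.49 and -0.34, the sterol median between -0.64 and -0.44, the chemokine median between -0.58 and -0.47 and the NF-kB median between -0.47 and -0.27.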

Other observations

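Several lists held few or dim genes. Of 28 cancer-testis genes, which are normally limited to the germline, only 6 reached the floor and none was bright. SPANXB1 read 95.7 with empty vector, 370.2 with LATS2 and 219 with LATS2N, and MAGEA12 read 74.1, 231 and 109 in that order, so both were called higher on LATS2. MAGEC2 was called lower at 271, 126 and 311. Over all genes 0.963% were called higher and 0.842% lower. The median log2 ratio of the list lay between 0.04 and 1.33 over the alternative settings. Members of these families share long stretches of sequence, so a probe set may read more than 1 gene.

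Genes of steroid, retinoid and drug handling included dim calls. RARRES2, which encodes the chemoattractant chemerin, read 445 with empty vector, 148 with LATS2 and 448 with LATS2N. HSD11B2, which inactivates cortisol, read 201, 67.9 and 142 in that order. SLCO1B3, an organic anion transporter, read 209, 66.6 and 167. The LATS2 array was lowest for all 3 genes. Among dim genes with agreeing probe sets, ADAMTS17, a secreted metalloprotease, was higher on LATS2 at 113, 319 and 127, as were TMEM171 at 175, 416 and 205, DNAJC27 at 169, 396 and 226, and SPATA7 at 80.4, 173 and 106. DTNA, a dystrophin-associated protein, was lower at 305, 139 and 267, as were HMCN2, a hemicentin, at 149.9, 53.7 and 136, and TSPOAP1-AS1, an antisense transcript, at 167, 78.2 and 163.

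Genes of antigen presentation by MHC class I went both ways, with 8 above and 5 below 0 of 13 that reached the floor. Their median was 0.01, which kept its sign in 6 of 9 alternative settings. Over all genes 45.2% were below 0 and 0.963% called higher. TAPBP, the chaperone tapasin, read 512 with empty vector, 283 with LATS2 and 429.6 with LATS2N. TAP2, a subunit of the peptide transporter, read 798, 562 and 668 in that order. Both were lower in both of their usable probe sets. The called member was ERAP2, a peptide-trimming protease, which was higher on LATS2 with a log2 ratio of 1.00. This call held in 4 of the 8 alternative settings that gave it a value.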
